A study of Mus musculus with 37 samples.

Results

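Interferon-stimulated genes were measured in bulk RNA-seq of uterine natural killer (uNK) cells. They were chosen by name, as a list of 51 genes, and no measured value entered the rule. All 51 were found among the 53700 genes of the 37 count files. Single cells of the uterus of pregnant C57BL6 mice, taken at gestation day 9.5 to 10.5, were sorted as live CD45+ NKp46+ cells that were negative for CD3, CD4 and CD8 and not high for CD11b. The sort then used the inhibitory receptors Ly49C/I and NKG2A, which bind MHC class I molecules and set the responsiveness of NK cells, a process called education. Wild-type (WT) mice gave 9 libraries of uneducated cells (Ly49C/I- NKG2A-), 9 libraries of cells educated by NKG2A (NKG2A+ Ly49C/I-) and 6 libraries of cells educated by Ly49C/I (Ly49C/I+ NKG2A-). NKG2A KO mice on the same strain gave 8 libraries of uneducated and 5 of Ly49C/I+ cells. The sources used here state neither how the knockout was made nor how many mice went into a library, so p-values measure the spread between these libraries, which may in part be technical.

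Interferons are secreted proteins that alert cells to infection. Type I interferons act through the receptor subunits Ifnar1 and Ifnar2, and the signal ends in a complex with Stat2 and Irf9 that binds the interferon-stimulated response element (ISRE). Interferon-gamma, made in large part by NK and T cells, acts through Ifngr1 and Ifngr2, and the signal ends at the gamma-activated site (GAS). The Ifit, Oas and Mx families are classical type I targets, and the guanylate-binding proteins (Gbp) and immunity-related GTPases (Irgm) are classical interferon-gamma targets, although many of these genes answer to both. In the pregnant mouse uterus, interferon-gamma from uNK cells is known to act on the maternal spiral arteries. A further 28 genes of the list belong to neither set of families and are given here as regulators, sensors and other effectors.

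To show what kind of control sequence these genes carry, the start-site region of each gene (250 bases before to 50 bases after the start) was taken from RefSeq (GRCm38.p6) and searched on both strands for an ISRE core, GAAANNGAAA, and for a GAS, TTCNNNGAA. A region was found for 35 of the 51 genes, and the 2 patterns can overlap. The ISRE core was present in 62.9% of these 35 genes against 3.99% of all genes with a region, and the GAS in 31.4% against 9.55%. All 7 Gbp and Irgm genes with a region held an ISRE core, and 57.1% of them held a GAS. Among the 8 Ifit and Oas genes with a region, 62.5% held an ISRE core and 25.0% a GAS. No region was found for Mx1 or Mx2, so the bars for Ifit, Oas and Mx hold no Mx gene. A match is a description of the letters and not evidence of binding. The stretches below hold every match of that region with 20 bases on each side, or fewer after the last match of Oas1a, whose window ends at the base before the start. They are shown for 8 genes described in the results, and the capitals mark the ISRE cores and GAS letters, whose core reads as its reverse complement where it lies on the other strand.
Isg15, chr4:156200855-156200916, minus strand: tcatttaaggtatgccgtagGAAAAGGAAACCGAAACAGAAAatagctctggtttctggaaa
Ifit1, chr19:34640765-34640833, plus strand: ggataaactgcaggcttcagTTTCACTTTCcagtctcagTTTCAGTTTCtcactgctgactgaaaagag
Ifit3, chr19:34583353-34583436, plus strand: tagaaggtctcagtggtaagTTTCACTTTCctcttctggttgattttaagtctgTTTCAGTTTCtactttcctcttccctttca
Oas1a, chr5:120907526-120907643, minus strand: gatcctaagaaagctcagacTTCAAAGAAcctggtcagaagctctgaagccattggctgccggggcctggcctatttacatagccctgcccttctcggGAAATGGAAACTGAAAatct
Bst2, chr8:71537567-71537628, minus strand: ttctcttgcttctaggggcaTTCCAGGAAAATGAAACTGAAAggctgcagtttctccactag
Irf1, chr11:53769904-53769952, plus strand: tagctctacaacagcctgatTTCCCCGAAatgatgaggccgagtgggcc
Gbp7, chr3:142530210-142530312, plus strand: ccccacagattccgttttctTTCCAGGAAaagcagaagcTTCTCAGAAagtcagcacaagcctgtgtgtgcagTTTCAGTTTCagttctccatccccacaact
Igtp, chr11:58199491-58199551, plus strand: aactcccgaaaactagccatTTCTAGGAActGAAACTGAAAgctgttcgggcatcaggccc
Isg15 held 3 overlapping ISRE cores, Ifit1 and Ifit3 held 2 each and no GAS, and Irf1 held 1 GAS and no ISRE core. The interferon-gamma target genes Gbp7 and Igtp held both patterns, and so did Oas1a and Bst2. All 8 windows lie upstream of the start.

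**Figure D1:**
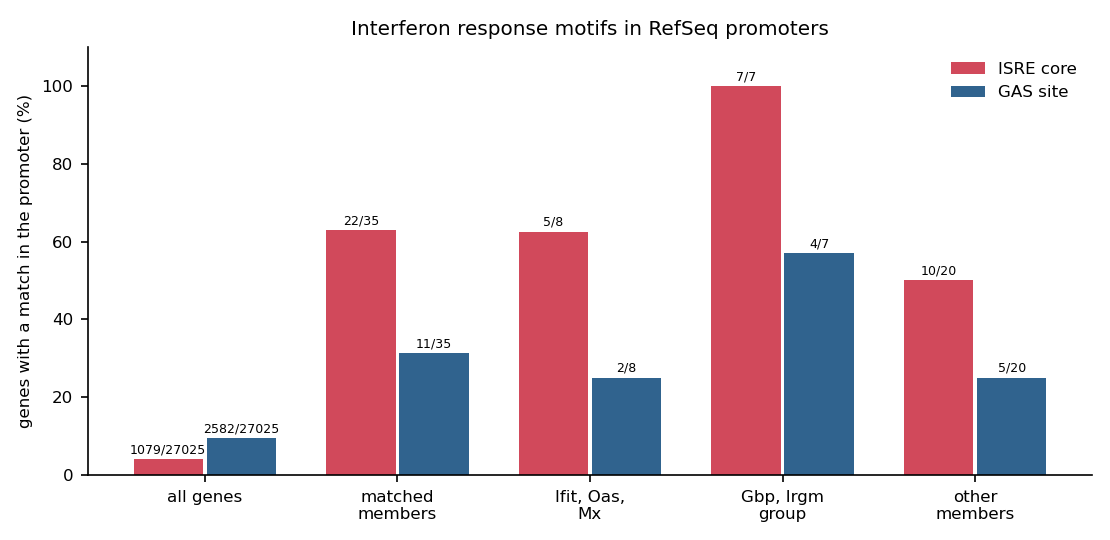
The bars show the percentage of genes whose start-site region held an ISRE core or a GAS, for all genes with a region, the 35 interferon-stimulated genes with a region, and the 3 sets within them. The ISRE core was found in 62.9% of the interferon-stimulated genes and in 3.99% of all genes.

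The libraries held 13287163 to 18875033 reads on genes (median 17273311) and 13982 to 17859 genes with a count. Klrc1, which encodes NKG2A, averaged 604 CPM (read counts scaled to a common library size) in NKG2A+ cells and 2.18 to 4.29 CPM in the other groups, which in both genotypes had been sorted as NKG2A-, so that Klrc1 does not check the knockout. Klra9, a Ly49 receptor gene, averaged 645 and 976 CPM in Ly49C/I+ cells of WT and NKG2A KO mice and 70 to 106 CPM elsewhere. The summed CPM of 8 NK cell markers lay between 10600 and 14530 in every library. In bulk samples fewer cells of a type and less RNA per cell cannot be told apart. Library 7 of WT Ly49C/I+ and library 4 of NKG2A KO Ly49C/I+ stood above the rest of their groups for several of the genes below, and the counts in the comparisons of Ly49C/I+ with uneducated cells are given with and without them.

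In WT uneducated cells the members covered a wide range of levels. Per kilobase of transcript, the group means ran from 815 CPM per kb for Ly6e, a membrane-anchored antiviral regulator, to 0 for Oas2, which had no count in any of the 9 libraries. Next after Ly6e came Bst2 (tetherin, which holds budding virus at the membrane) at 128, Irf1 (a transcription factor induced by interferon-gamma) at 79.5 and Slfn2 (a Schlafen protein of lymphocyte quiescence) at 74.7 CPM per kb. The spread between libraries overlapped for the last 2 of these. Ifit3b, Iigp1 and Oas2 stayed under a mean of 5 CPM in all 5 groups. These genes and Slfn1 passed the filter on low counts (at least 5 CPM in a share of 0.5 of the libraries compared) in no comparison, and 47 members did so in at least 1.

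**Figure D2:**
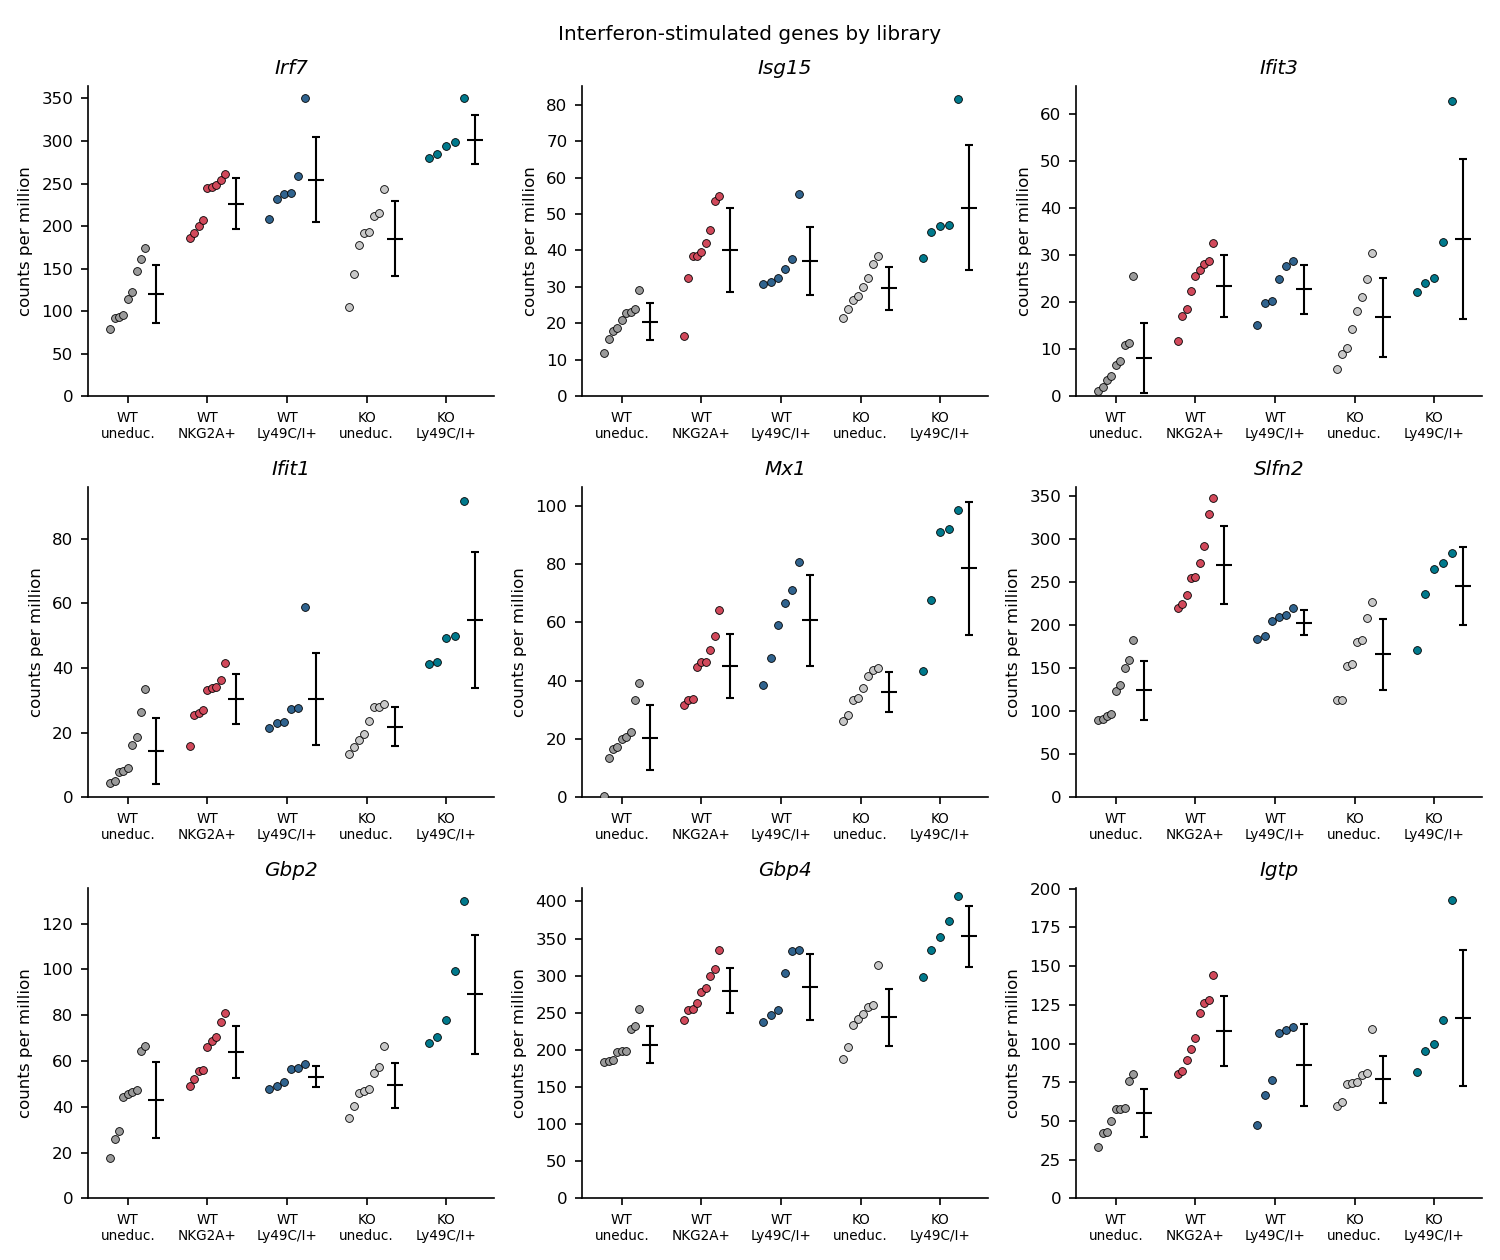
Each point is the CPM of one gene in one library, in the 5 groups, for Irf7, Isg15, Ifit3, Ifit1, Mx1, Slfn2, Gbp2, Gbp4 and Igtp, with the bar at the group mean and its error bar 1 SD. Irf7 was at 79.5 to 174 CPM in WT uneducated cells and at 185 to 261 CPM in NKG2A+ cells, and the groups did not overlap.

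The first comparison asked how cells educated by NKG2A differ from uneducated cells in WT mice. Interferon-stimulated genes were higher in NKG2A+ cells: of the 46 that passed the filter, 27 were higher and 0 lower, where 7.43% of the 9339 genes tested were higher and 7.65% lower (edgeR's quasi-likelihood test, Benjamini-Hochberg adjusted p under 0.05). The median log2 fold change of the 46 was 0.68, against 0.01 over all genes tested. Both families of targets were included. Of the Ifit, Oas and Mx genes, 5 of 8 tested were higher, with a median of 1.03, and of the Gbp and Irgm genes 4 of 11, with a median of 0.44. The other genes gave 18 of 27, with a median of 0.72. Slfn5 and Oasl2, with means under 5 CPM in uneducated cells, passed the filter through the NKG2A+ libraries.

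Among the regulators, Irf7, the transcription factor that amplifies type I interferon production, was at 79.5, 115 and 174 CPM (lowest, median and highest) in WT uneducated libraries and at 185, 245 and 261 CPM in NKG2A+ libraries. No NKG2A+ library reached down to the highest uneducated one, and the log2 fold change was 0.92 ± 0.14 (SE, adjusted p = 0.000121). Irf9, the DNA-binding part of the type I complex, also did not overlap between the groups, at 37.6, 68.7 and 90.1 CPM against 96.0, 115 and 134 CPM, a log2 difference of 0.75 ± 0.14 (adjusted p = 0.000968). Irf1 rose by 0.63 on the log2 scale (adjusted p = 0.00212). Stat2 (0.22 ± 0.12, adjusted p = 0.224) and Usp18, the enzyme that removes Isg15 from proteins and damps the type I receptor (0.17 ± 0.13, adjusted p = 0.414), were not called. Thus 3 of the 5 regulators rose. Of the 5 sensors of foreign nucleic acid 3 were called, namely Zbp1, a sensor of left-handed nucleic acid (0.83 ± 0.13, adjusted p = 0.000173), Dhx58 and Ifih1. The Dhx58 call (adjusted p = 0.0206) was lost when genes of low count were kept in (adjusted p = 0.0507). The Ifih1 call (adjusted p = 0.0406) was lost in 12 of the 18 fits without 1 library, those without uneducated library 1, 2, 3, 4, 7 or 9 or NKG2A+ library 1, 2, 5, 6, 7 or 9 (adjusted p up to 0.0762).

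Among the effectors, Isg15, a ubiquitin-like protein that is joined to other proteins, was at 11.9, 21.0 and 29.2 CPM in uneducated and at 16.5, 39.6 and 55.0 CPM in NKG2A+ libraries, and 8 of the 9 NKG2A+ libraries lay above every uneducated one (log2 fold change 0.98 ± 0.20, adjusted p = 0.00173). Ifi27l2a, a small interferon-induced membrane protein, did not overlap between the groups, at 14.5, 18.7 and 23.2 CPM against 35.2, 42.0 and 127 CPM (1.65 ± 0.23, adjusted p = 3.81e-05). Slfn2 did not overlap either, at 89.7, 124 and 183 CPM against 220, 256 and 348 CPM (1.13 ± 0.14, adjusted p = 1.90e-05). Xaf1, a promoter of cell death, was separated too (0.72 ± 0.12, adjusted p = 0.000311). Its closest libraries were almost level, at 70.8 CPM in uneducated and 71.29 CPM in NKG2A+ cells. All 3 Schlafen genes tested were called, but Slfn5 (1.70 ± 0.51, adjusted p = 0.0256), which passed the filter through the NKG2A+ libraries, was tested in 9 of the 18 fits without 1 library and was not called once genes of low count were kept in (adjusted p = 0.0697). Rsad2 (viperin, which blocks viral RNA synthesis) and Rtp4 (a restrictor of flavivirus RNA) each rose by 1.11, with adjusted p of 0.00704 and 0.00421. Bst2 rose by 0.29 ± 0.08 (adjusted p = 0.0197). Ly6a was at 2.41, 13.1 and 50.5 CPM against 6.65, 21.3 and 67.4 CPM, a difference of 0.73 ± 0.52 that was not called (adjusted p = 0.383).

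Among the type I families, Oasl2, a protein of the oligoadenylate synthetase family that passed the filter through the NKG2A+ libraries, was at 0.30, 3.86 and 10.8 CPM in uneducated and 8.80, 10.7 and 27.4 CPM in NKG2A+ libraries (1.79 ± 0.43, adjusted p = 0.00629). Ifit3, which works with Ifit1 against viral RNA, was at 1.23, 6.57 and 25.6 CPM against 11.9, 25.6 and 32.5 CPM (1.54 ± 0.42, adjusted p = 0.0147). The uneducated library at 25.6 CPM was number 7, and the others were at 11.4 CPM or less, below every NKG2A+ library. In transcript sequence 51.2% of the 50-base words of Ifit3 also occur in Ifit3b, so that reads of this pair may be split. Ifit1 (1.09 ± 0.33, adjusted p = 0.0297) lost its call when uneducated library 2, 8 or 9 or NKG2A+ library 3 was left out, with adjusted p between 0.0510 and 0.0555. Mx1, a dynamin-like GTPase whose C57BL/6 allele yields no working protein, was at 0.383, 19.8 and 39.3 CPM against 31.8, 46.3 and 64.2 CPM (1.15 ± 0.38, adjusted p = 0.0468). Its call was lost in 14 of the 18 fits that left out 1 library, those without uneducated library 1, 3, 4, 6, 8 or 9 or any NKG2A+ library other than number 8 (adjusted p 0.0532 to 0.0800). Oas1a, at 25.3, 46.3 and 80.4 CPM against 52.5, 69.3 and 72.8 CPM, was not called (0.49 ± 0.17, adjusted p = 0.0553), and 57.6% of its 50-base words are shared with other genes. The groups overlapped for all the Ifit, Oas and Mx genes.

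Among the interferon-gamma families, Igtp, an immunity-related GTPase that acts on pathogen vacuoles, separated the groups, at 32.9, 57.7 and 80.35 CPM in uneducated and 80.38, 104 and 144 CPM in NKG2A+ libraries (0.97 ± 0.16, adjusted p = 0.000275). The closest libraries of the groups were almost level. Gbp6 rose by 1.26 ± 0.23 (adjusted p = 0.000678), but 70.7% of its 50-base words are shared with other genes, so its reads cannot be assigned with certainty. Gbp4 rose by 0.44 ± 0.08 (adjusted p = 0.000952) and Irgm1 by 0.54 ± 0.15 (adjusted p = 0.0139). Gbp2 was at 17.5, 45.4 and 66.3 CPM against 49.0, 66.3 and 80.9 CPM, and its difference of 0.58 ± 0.20 was not called (adjusted p = 0.0542). Gbp7 differed by 0.24 ± 0.09 (adjusted p = 0.0796).

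Of the 27 calls, 20 were made in each of the alternative fits in which the gene was tested, leave-one-out fits included. Markers of other cell types moved with this comparison. Ly6c2, which monocytes but also NK cells express, rose from a mean of 72.6 to 189 CPM, while Adgre1, C1qa and Mrc1, which define macrophages, had group means of 0.01 to 2.9 CPM. Other macrophage markers were higher: the mean of Lyz2 was 29.6 CPM in uneducated and 62.9 CPM (up to 173 CPM) in NKG2A+ libraries, and that of C1qb 4.11 and 9.85 CPM (up to 24.2 CPM). The sum of the 8 macrophage and monocyte markers, Ly6c2 included, was 91.8 to 239 CPM in uneducated and 147 to 508 CPM in NKG2A+ libraries. The T cell marker Cd3e was at means of 4.06 and 14.5 CPM, and the 9 T cell markers summed to 88.1 to 189 and 101 to 229 CPM. The sum of 5 dendritic cell markers went the other way, from 107 to 336 down to 9.60 to 136 CPM, and Siglech, which marks plasmacytoid dendritic cells, had a mean of at most 0.84 CPM in all 5 groups. The sum of 3 endothelium markers fell from 207 to 346 down to 121 to 205 CPM, and 2 of the 3 had means under 1 CPM in both groups. The sum of 3 epithelium markers went from 47.2 to 121 down to 19.7 to 77.1 CPM. The part of these markers in the result was not tested.

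**Figure D3:**
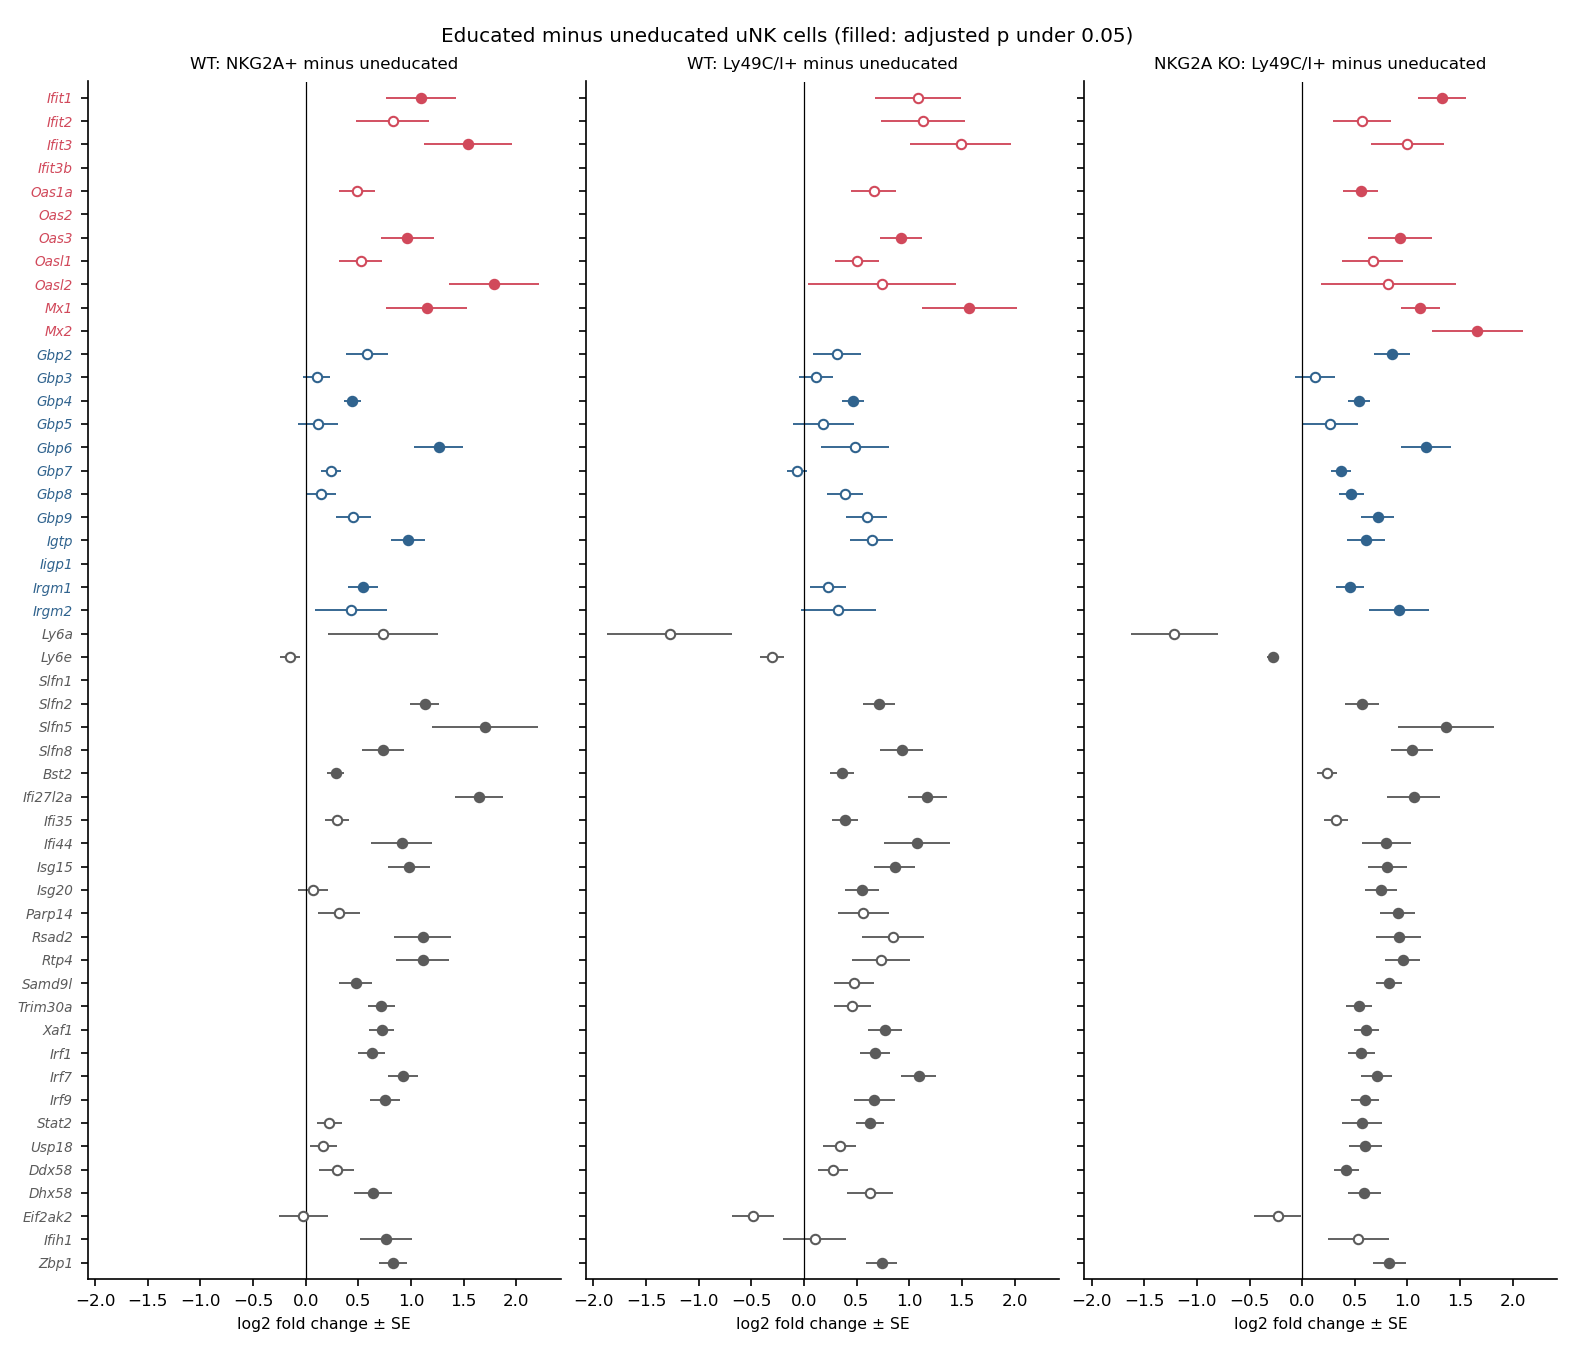
The 3 panels give the log2 fold change of each gene between educated and uneducated cells with its standard error: NKG2A+ in WT, Ly49C/I+ in WT and Ly49C/I+ in NKG2A KO. Filled points passed an adjusted p of 0.05, red marks the Ifit, Oas and Mx genes, blue the Gbp and Irgm genes and grey the others, and a blank line means not tested; 27, 17 and 35 genes were higher.

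The second comparison asked the same of cells educated by Ly49C/I in WT mice, against the same 9 uneducated libraries, so the first 2 comparisons are not independent. Of 45 genes tested, 17 were higher and 0 lower, where 4.23% of the 9291 genes tested were higher and 5.31% lower. The median log2 fold change was 0.59, against -0.00 over all genes. Of the Ifit, Oas and Mx genes 2 of 8 tested were higher (median 1.01), of the Gbp and Irgm genes 1 of 11 (median 0.33), and of the others 14 of 26 (median 0.63). Regulators gave 4 of 5 and the Schlafen genes 2 of 2.

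Irf7 was at 209, 239 and 350 CPM in the Ly49C/I+ libraries, all above the highest uneducated library at 174 CPM (1.09 ± 0.17, adjusted p = 0.00108). Irf1 was at 237, 268 and 306 CPM against 102, 170 and 224 CPM in uneducated libraries, also without overlap (0.68 ± 0.14, adjusted p = 0.00705). Stat2, a part of the type I complex, rose by 0.62 ± 0.13 (adjusted p = 0.00780). Isg15 was at 30.7, 33.6 and 55.4 CPM and did not overlap with uneducated cells (0.86 ± 0.19, adjusted p = 0.0114). Ifi27l2a, at 30.6, 38.1 and 67.0 CPM (1.17 ± 0.19, adjusted p = 0.00145), and Slfn2, at 184, 207 and 220 CPM (0.71 ± 0.15, adjusted p = 0.00720), did not overlap either. Zbp1 rose by 0.74 ± 0.15 (adjusted p = 0.00586), Xaf1 by 0.77 ± 0.16 (adjusted p = 0.00718) and Slfn8 by 0.93 ± 0.20 (adjusted p = 0.00976). Ifi44, an interferon-induced cytoplasmic protein, rose by 1.07 ± 0.32 (adjusted p = 0.0408), a call lost without uneducated library 1, 3, 4 or 8 or Ly49C/I+ library 2, 4, 7 or 8 (adjusted p up to 0.122). The Bst2 difference of 0.36 ± 0.11 had an adjusted p of 0.0464, and its call was lost in 12 of the 15 fits without 1 library, those without uneducated library 1, 2, 3, 4, 6, 7 or 9 or Ly49C/I+ library 1, 2, 5, 7 or 8 (adjusted p up to 0.141). The Ly6a difference of -1.28 ± 0.59 was not called (adjusted p = 0.190).

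Oas3, which makes the oligoadenylates that switch on RNase L, was at 22.7, 28.5 and 38.9 CPM in Ly49C/I+ and 9.43, 14.2 and 20.0 CPM in uneducated libraries, without overlap (0.92 ± 0.20, adjusted p = 0.00801). Mx1 was at 38.5, 62.9 and 80.7 CPM (1.57 ± 0.45, adjusted p = 0.0364), and lost its call in 10 of the 15 fits without 1 library, those without uneducated library 1, 3, 4, 8 or 9 or Ly49C/I+ library 2, 4, 5, 7 or 8 (adjusted p up to 0.0772). Ifit1 and Ifit3 were not called. Their differences were 1.09 ± 0.41 (adjusted p = 0.10) and 1.49 ± 0.48 (adjusted p = 0.0583), and 6 of 6 Ly49C/I+ libraries lay above the uneducated median for both genes. Gbp4 was the called member of the interferon-gamma families (0.46 ± 0.10, adjusted p = 0.0109). Igtp, at 47.4, 91.5 and 111 CPM, differed by 0.64 ± 0.21 (adjusted p = 0.0583), Gbp2 by 0.31 ± 0.23 (adjusted p = 0.436) and Gbp7 by -0.06 ± 0.09 (adjusted p = 0.729).

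Fewer libraries were behind this comparison, and the count moved with single libraries. It fell to 11 without uneducated library 1, 3 or 4 or Ly49C/I+ library 7, and was 20 without uneducated library 6. Without Ly49C/I+ library 7, 1 of 8 Ifit, Oas and Mx genes, 1 of 11 Gbp and Irgm genes and 9 of 26 others were called. Of the 17 calls, 10 were made in every alternative fit. The macrophage and monocyte marker sum was 110 to 623 CPM in Ly49C/I+ libraries, with Adgre1 at a mean of 0.773 CPM. Lyz2 ran from 5.06 to 292 CPM in them (mean 84.7 CPM) and C1qb up to 44.9 CPM (mean 15.7 CPM). The dendritic cell marker sum was 107 to 336 CPM in uneducated and 5.17 to 97.5 CPM in Ly49C/I+ libraries, without overlap. In the same order, the endothelium marker sum was 207 to 346 and 140 to 218 CPM, and the epithelium marker sum 47.2 to 121 and 26.3 to 44.3 CPM. The share of reads given to no gene was 2.90 to 4.47% (median 3.32%) in uneducated and 4.16 to 6.83% (median 5.12%) in Ly49C/I+ libraries. The part of these values in the result was not tested.

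The third comparison set the WT groups educated by the different receptors against each other. Few interferon-stimulated genes differed: 2 of 47 tested were higher in NKG2A+ cells and 0 lower, where 1.37% of the 9304 genes tested were higher and 1.20% lower. The median log2 difference was 0.01, as it was over all genes. None of the 9 Ifit, Oas and Mx or 11 Gbp and Irgm genes tested was called by edgeR's quasi-likelihood test, and 1 and 4 of them had an unadjusted p under 0.05. These shares were 11.1% and 36.4%, against 18.4% over all genes tested. Slfn2 was higher in NKG2A+ cells, at 220 to 348 CPM against 184 to 219.5 CPM (0.41 ± 0.10, adjusted p = 0.0351). Ly6a (Sca-1), a membrane protein of activated lymphocytes, was at 6.65, 21.3 and 67.4 CPM against 3.06, 5.31 and 11.7 CPM (2.00 ± 0.49, adjusted p = 0.0355), and 19.0% of its 50-base words are shared with neighbouring Ly6 genes. The Slfn2 call was lost without NKG2A+ library 1 or 4 or Ly49C/I+ library 2, 4, 5 or 7 (adjusted p up to 0.0775). The Ly6a call was lost without any of NKG2A+ libraries 1 to 5 or Ly49C/I+ libraries 2, 4, 7 or 8 (adjusted p up to 0.0870). The count of called genes was 0 without NKG2A+ library 1 or 4 or Ly49C/I+ library 2, 4 or 7, and 3 without Ly49C/I+ library 1. For Irf7 the log2 difference was -0.17 ± 0.11, for Isg15 0.12 ± 0.21, for Ifit1 0.00 ± 0.24 and for Gbp4 -0.03 ± 0.09.

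The fourth comparison repeated the second, by sort label, in NKG2A KO mice and shared no library with it. Of 47 genes tested, 35 were higher in Ly49C/I+ than in uneducated cells and 1 was lower, where 7.45% of the 9301 genes tested were higher and 8.91% lower. The median log2 fold change was 0.61, against 0.02 over all genes. Of the Ifit, Oas and Mx genes 5 of 9 tested were higher (median 0.93), of the Gbp and Irgm genes 9 of 11 (median 0.54), and of the others 21 of 27 (median 0.60). All 5 regulators were called, and 10 of 12 other effectors. The Stat2 call (0.57 ± 0.19, adjusted p = 0.0476) was lost in 11 of the 13 fits without 1 library, all but those without uneducated library 4 or Ly49C/I+ library 5 (adjusted p up to 0.180).

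Ifit1 was at 41.3, 41.9, 49.2, 49.8 and 91.6 CPM in the 5 NKG2A KO Ly49C/I+ libraries and at 13.5, 21.6 and 28.9 CPM (lowest, median and highest) in the 8 NKG2A KO uneducated ones, without overlap (1.33 ± 0.23, adjusted p = 0.00121). Irf7 was at 279, 284, 294, 298 and 351 CPM against 105, 193 and 243 CPM, again without overlap (0.71 ± 0.15, adjusted p = 0.00423). In both genes library 4 was the highest and the groups stayed apart without it. Mx1 was at 43.2, 67.8, 91.0, 92.1 and 98.4 CPM against 26.2, 35.9 and 44.5 CPM (1.12 ± 0.18, adjusted p = 0.000962), with 4 of 5 libraries above every uneducated one. Isg15 was at 37.8, 45.2, 46.8, 47.0 and 81.6 CPM against 21.5, 28.8 and 38.4 CPM (0.81 ± 0.19, adjusted p = 0.00830). Usp18, not called in either WT comparison, rose by 0.60 ± 0.16 (adjusted p = 0.0154), but not without Ly49C/I+ library 4 (adjusted p = 0.0569). Ifit3 differed by 1.00 ± 0.35 and was not called (adjusted p = 0.0583). Samd9l, an antiviral factor, was at 137, 139, 151, 168 and 192 CPM against 68.0, 87.5 and 118 CPM, and did not overlap between the groups (0.82 ± 0.12, adjusted p = 0.000610). Parp14, a member of the ADP-ribosyltransferase family, did not overlap either, at 63.0 to 106 CPM against 31.5 to 57.9 CPM (0.91 ± 0.17, adjusted p = 0.00198). The same held for Zbp1, Isg20, Rsad2, Rtp4 and Xaf1, without the share of all genes tested that did not overlap to set beside them. Rtp4 (0.95 ± 0.17, adjusted p = 0.00155), Slfn8 (1.04 ± 0.20, adjusted p = 0.00287) and Ifi27l2a (1.06 ± 0.25, adjusted p = 0.00930) rose as well. Bst2 (0.24 ± 0.10, adjusted p = 0.109) and Ly6a (-1.21 ± 0.42, adjusted p = 0.0551) were not called.

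Mx2 rose by 1.66 ± 0.43 (adjusted p = 0.0154), from values of 6.53, 7.16, 7.68, 20.4 and 27.9 CPM against 1.94, 3.77 and 10.3 CPM. It passed the filter through the Ly49C/I+ libraries and lost its call without library 4 or 5 (adjusted p 0.0600 and 0.0526). Slfn5, which also passed through that group, rose by 1.36 ± 0.46 (adjusted p = 0.0497), a call lost in 10 of the 12 fits without 1 library that tested it, those without uneducated library 1, 3, 4, 5, 6, 7 or 8 or Ly49C/I+ library 4, 6 or 7 (adjusted p up to 0.212). Oas3 rose by 0.93 ± 0.30 (adjusted p = 0.0428), a call lost without uneducated library 1, 3, 5, 6, 7 or 8 or Ly49C/I+ library 4, 5, 6 or 7 (adjusted p up to 0.134).

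In the interferon-gamma families, Gbp2 was at 68.0, 70.5, 77.7, 99.1 and 130 CPM in NKG2A KO Ly49C/I+ libraries and at 35.2, 47.3 and 66.3 CPM in uneducated ones, without overlap (0.86 ± 0.17, adjusted p = 0.00329). Gbp6 did not overlap either (1.18 ± 0.24, adjusted p = 0.00341). Gbp4 rose by 0.54 ± 0.11 (adjusted p = 0.00317) and Gbp7 by 0.37 ± 0.09 (adjusted p = 0.0129). All 3 Irgm genes tested rose. Igtp was at 81.4, 95.2, 99.4, 115 and 193 CPM against 59.3, 74.8 and 110 CPM (0.61 ± 0.18, adjusted p = 0.0292), and this call was lost without uneducated library 1, 2 or 3 or Ly49C/I+ library 4 or 6 (adjusted p up to 0.136). Irgm2 rose by 0.92 ± 0.29 (adjusted p = 0.0361), which was lost without uneducated library 3, 7 or 8 or Ly49C/I+ library 4, 6, 7 or 8 (adjusted p up to 0.0842).

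Ly6e was the 1 member called lower in the main fit. It was at 1357, 1455, 1539, 1571 and 1617 CPM in NKG2A KO Ly49C/I+ libraries and at 1711, 1840 and 1927 CPM in uneducated ones, without overlap (-0.28 ± 0.06, adjusted p = 0.00513). In WT cells its difference between Ly49C/I+ and uneducated cells was -0.30 ± 0.12 and was not called (adjusted p = 0.106).

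Without Ly49C/I+ library 4 the count of called genes in NKG2A KO mice was 24 in place of 36. In that fit 2 of 9 Ifit, Oas and Mx genes, 5 of 11 Gbp and Irgm genes and 15 of 27 others were higher, and 3 of the 5 regulators. The rest of the 24 called genes were lower, Ly6e among them. Of the 36 calls, 18 were made in each alternative fit in which the gene was tested. In NKG2A KO mice 35 of all 47 members tested were higher, and 7.45% of all genes tested, so a large overlap with any list of members follows. Of the 17 genes higher with Ly49C/I in WT mice, 15 were also higher in NKG2A KO mice, which is 88.2% of the WT list and 42.9% of the NKG2A KO list. The others, called in WT alone, were Bst2 and Ifi35, and the test of the difference between the genotypes called neither. The WT call of Ifi35 (adjusted p = 0.0478) was lost in 11 of the 15 fits without 1 library, those without uneducated library 1, 2, 3, 4, 8 or 9 or Ly49C/I+ library 1, 2, 4, 5 or 7 (adjusted p up to 0.131). The macrophage and monocyte marker sum was 118 to 233 CPM in uneducated and 200 to 440 CPM in Ly49C/I+ libraries, and the dendritic cell marker sum 58.1 to 271 and 7.62 to 48.4 CPM. In the same order, the endothelium marker sum was 178 to 344 and 128 to 198 CPM, and the epithelium marker sum 35.2 to 74.6 and 10.1 to 33.8 CPM. The share of reads given to no gene was 2.69 to 5.67% (median 3.33%) and 3.94 to 5.26% (median 4.12%). Their part in the result was not tested.

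The genotypes were compared between cells of the same sort label, uneducated or Ly49C/I+. In mice without NKG2A the sort cannot set aside cells that would carry NKG2A in WT mice. Per the paper, WT cells positive for both receptors were not collected. The knockout libraries may therefore hold cells that WT libraries of the same label leave out. The part of this in the differences between genotypes was not tested. In uneducated cells 0 of 45 genes tested were called between NKG2A KO and WT, where 0% of the 9276 genes tested were called. At an unadjusted p under 0.05 there were 18 of these 45 genes (40.0%), against 6.55% of all genes tested, and the log2 difference was above 0 in 40 of 45, with a median of 0.26 against -0.00 over all genes. The likelihood ratio test and DESeq2 called 0 of them and 1 gene each overall. For Irf7 the difference was 0.62 ± 0.17 (adjusted p = 0.524), with 6 of 8 NKG2A KO libraries above every WT library, and for Igtp 0.47 ± 0.16 (adjusted p = 0.596). These comparisons share libraries with the earlier ones.

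In Ly49C/I+ cells 0 of 47 genes tested were called by edgeR's quasi-likelihood test, where 0% of the 9343 genes tested were called, 18 of the 47 (38.3%) had an unadjusted p under 0.05 against 10.6% of all genes, and 46 of 47 differences were above 0, with a median of 0.41 against 0.01. Gbp2 was at 47.6, 53.6 and 58.5 CPM in WT and from 68.0 to 130 CPM in NKG2A KO libraries, without overlap (0.74 ± 0.17, adjusted p = 0.153). Gbp6, Gbp7, Rsad2 and Rtp4 did not overlap either, with adjusted p of 0.248, 0.190, 0.261 and 0.169. The share of all genes tested whose groups did not overlap is not given here, so the separation only describes these genes. Both the likelihood ratio test and DESeq2 called Gbp2, Gbp7 and Rtp4. For Gbp2 the adjusted p was 0.0122 and 0.0150 by these tests, for Gbp7 0.0433 and 0.0456, and for Rtp4 0.0220 and 0.0204.

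Whether Ly49C/I+ and uneducated cells differed to another extent in the knockout was tested as a difference of differences. The limit given above on the sort in the knockout applies to this test too. Of 45 genes tested 0 were called, where 0% of the 9324 genes tested were called, and the lowest adjusted p was 0.9995. The likelihood ratio test called 0 genes and DESeq2 called 1, no member. Gbp7 alone had an unadjusted p under 0.05 (0.43 ± 0.13, adjusted p = 0.9995 by edgeR's quasi-likelihood test), and the standard errors for Ifit1 (0.24 ± 0.51) and Irf7 (-0.39 ± 0.24) left wide margins.

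**Figure D4:**
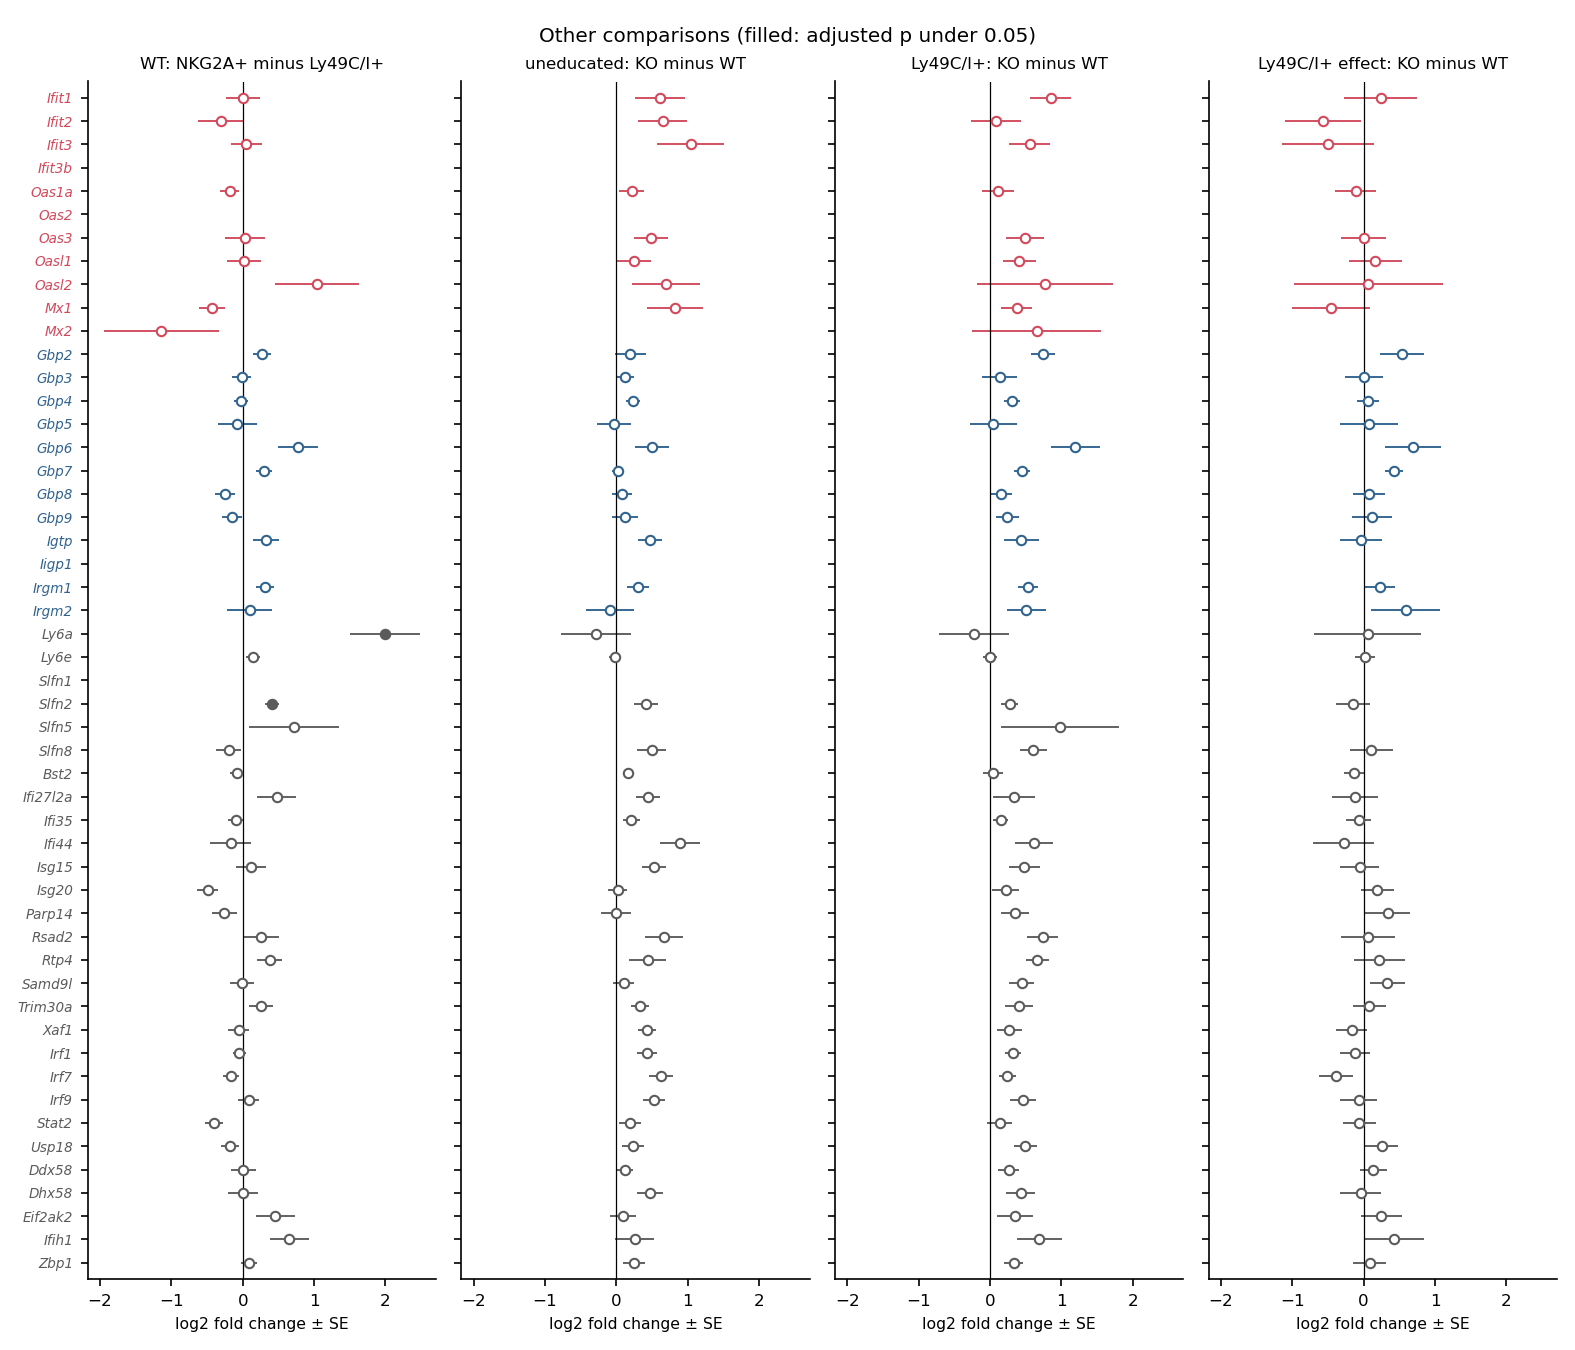
The 4 panels give the log2 difference of each gene with its standard error for NKG2A+ against Ly49C/I+ cells in WT, NKG2A KO against WT in uneducated cells, NKG2A KO against WT in Ly49C/I+ cells, and the change with Ly49C/I in NKG2A KO minus that in WT. Filled points passed an adjusted p of 0.05, which only Ly6a and Slfn2 did, in the first panel.

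Single libraries were summarised by the median, over the genes of a set, of their log2(CPM + 1) relative to the mean of the 37 libraries. For the Ifit, Oas and Mx genes this ran from -1.21 to 0.04 with a median of -0.56 in WT uneducated libraries, from -0.31 to 0.69 in NKG2A+ and from -0.06 to 0.83 in WT Ly49C/I+ libraries. In the knockout it ran from -0.49 to 0.28 in uneducated and from 0.46 to 1.24 in Ly49C/I+ libraries, which did not overlap. For the Gbp and Irgm genes the ranges were -0.80 to 0.05, 0.03 to 0.47 and -0.07 to 0.30 in the WT groups and -0.34 to 0.07 and 0.23 to 0.65 in the knockout groups. The type I families varied more between libraries of one group. In WT uneducated cells the median SD of log2(CPM + 1) was 0.92 for the Ifit, Oas and Mx genes, 0.39 for the Gbp and Irgm genes and 0.36 over all genes tested. In NKG2A+ cells these were 0.52, 0.25 and 0.31, and in WT Ly49C/I+ cells 0.42, 0.32 and 0.33. The sets were not matched for level.

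**Figure D5:**
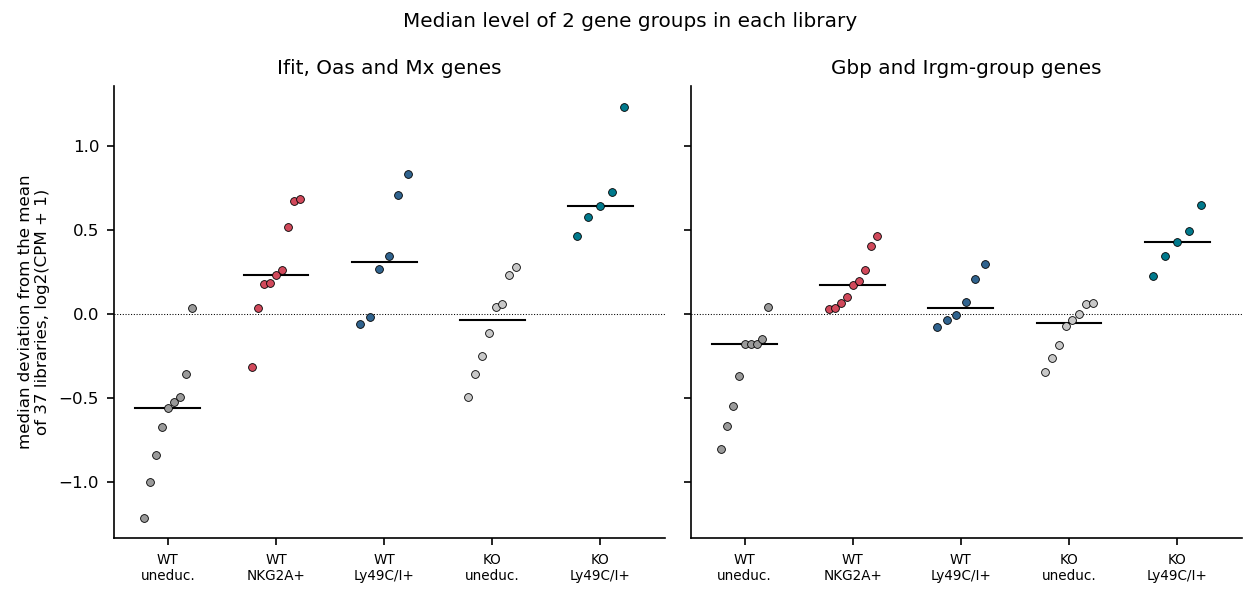
Each point is 1 library, at the median over the Ifit, Oas and Mx genes (left) or the Gbp and Irgm genes (right) of log2(CPM + 1) relative to the mean of the 37 libraries, the short line is the group median and the dotted line is 0. The 5 NKG2A KO Ly49C/I+ libraries lay above 0 in both panels, and 8 of the 9 WT uneducated libraries lay below it.

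The genes that make, receive and relay interferon signals were followed as a further list of 41, of which 26 passed the filter in each comparison of educated with uneducated cells. In NKG2A+ cells 11 of 26 rose, in WT Ly49C/I+ cells 4 and in NKG2A KO Ly49C/I+ cells 9, and none fell. Over all genes tested in these comparisons 7.43%, 4.23% and 7.45% were higher and 7.65%, 5.31% and 8.91% lower. Of the ligands only Ifng was measured above the filter. The type I and type III genes Ifnb1, Ifna2, Ifna4, Ifne, Ifnk, Ifnl2 and Ifnl3 had at most 1.41 CPM in any library, and Ifna2, Ifnk, Ifnl2 and Ifnl3 had no count in any. Ifng was at 53.9, 64.7 and 88.8 CPM in WT uneducated and 98.6, 115 and 164 CPM in NKG2A+ libraries, without overlap (0.87 ± 0.12, adjusted p = 5.59e-05). In WT Ly49C/I+ cells it was at 39.9, 75.0 and 108 CPM, a difference from uneducated cells of 0.13 (adjusted p = 0.706), and NKG2A+ cells were higher than Ly49C/I+ cells by 0.74 ± 0.17 (adjusted p = 0.0266). In the knockout its mean was 110 CPM in uneducated and 168 CPM in Ly49C/I+ cells (0.62, adjusted p = 0.121).

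Of the receptors, Ifngr1 rose in NKG2A+ cells (0.58 ± 0.09, adjusted p = 9.54e-05) and in NKG2A KO Ly49C/I+ cells (0.32 ± 0.08, adjusted p = 0.00976), while its partner Ifngr2 had group means of 2.09 CPM or less. Ifnar1 was called in WT Ly49C/I+ cells (0.46 ± 0.11, adjusted p = 0.0152). Nlrc5, the interferon-gamma-induced activator of MHC class I genes, was at 40.5, 48.7 and 69.7 CPM in WT uneducated and 77.8, 111 and 191 CPM in WT Ly49C/I+ libraries, without overlap (1.18 ± 0.18, adjusted p = 0.00100). It also rose in NKG2A+ cells (0.70 ± 0.19, adjusted p = 0.0162) and in NKG2A KO Ly49C/I+ cells (1.06 ± 0.23, adjusted p = 0.00491).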

How the data were processed

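Total RNA of sorted uNK cells was extracted with the RNeasy Micro kit and made into libraries by the authors with SMART-Seq v4 and Nextera XT, which do not mark strand. Per the labels and methods, reads were trimmed with Trim Galore 0.5.0, checked with FastQC 0.11.4 and aligned with STAR 2.7.1 to GRCm38. Which program counted the reads, and with what strand setting, was not given in the sources used here. The deposited values are raw read counts per Ensembl gene, 1 file for each of 37 libraries. The 5 summary lines (18.9 to 23.6% of reads) were left out, and 52147 of 53700 identifiers matched a symbol. Groups and library numbers were taken from the titles of the samples, except in WT Ly49C/I+, where they follow the library names in the descriptions (1, 2, 4, 5, 7 and 8), which the titles number from 1 to 6. The replicate block used the former. No pair of libraries was identical.

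The quasi-likelihood test of edgeR 4.0.16 (R 4.3.3) was run on the counts after TMM scaling, over all genes with 5 CPM in a share of 0.5 or more of the compared libraries, with Benjamini-Hochberg adjusted p under 0.05 as a call. Each fit held the groups compared. CPM values are TMM-scaled. The authors also used edgeR (3.26.5), with conditional quantile normalisation, in place of which offsets from a spline (5 df) on GC content and length were an alternative. The others were the likelihood ratio test, DESeq2 1.42.0, RLE scaling, no filter, a replicate block, all groups in 1 fit and leaving out libraries. Scripts were tested on simulated data. The genes named were 16 members whatever their result, the members called with the 10 largest fold changes of each comparison in each direction, members under 5 CPM in every group, examples of the called genes of the pathway list, Klrc1 and Klra9, and members whose groups did not overlap, which were added after their values were seen. For groups that did not overlap, no share over all genes tested is given in any comparison. Members and lists were chosen with earlier results of these data known. 50-base words were compared between GENCODE transcripts. Depth was 13287163 to 18875033 reads per library. Items withheld from this text are not reported here.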

Additional observations from a re-analysis of the deposited data

Results flagged for a closer look

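Each of 16 members was searched in each of the 5 groups for a library far from the rest of its group (Dixon's test, 95% level), and 12 of 80 searches found one, where chance finds about 1 in 20. Of these 12, 9 lay in Ly49C/I+ cells and came from 1 library of each genotype. Library 4 of NKG2A KO Ly49C/I+ stood high for Isg15 (81.6 CPM, the next library at 47.0), Ifit1 (91.6, next 49.8), Ifit3 (62.8, next 32.8), Irf1 (447.5, next 322.5), Irf7 (351 CPM, next 298) and Bst2 (174.8, next 129.8). Library 7 of WT Ly49C/I+ stood high for Isg15 (55.4 CPM, next 37.7), Ifit1 (59.0, next 27.8) and Irf7 (350.3, next 259).

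The remaining 3 were Ifit3 in WT uneducated library 7 (25.6 CPM, next 11.4), Ly6a in WT uneducated library 5 (50.5 CPM, next 23.4) and Igtp in NKG2A KO uneducated library 4 (109.5 CPM, next 80.7). What set these libraries apart was not tested.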

How the results depend on the processing

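Over all alternatives, the fold changes of named genes kept their direction and side of the threshold 658 times, lost the call 109 times and reversed 0 times, and the counts of called members stayed within 1.5 times in 150 fits and moved further in 24. The 150 fits include those of comparisons whose main count was 0, where 0 against 0 was taken as unmoved, so they overstate the stability of calls. For NKG2A+ against uneducated cells the count was 27 and ran from 21 to 31 (22 to 29 without 1 library). For Ly49C/I+ against uneducated cells in WT it was 17, 11 with no filter on low counts, 29 with all groups in 1 fit and 11 to 20 without 1 library. For NKG2A+ against Ly49C/I+ cells it was 2, 0 with no filter, 1 with GC and length offsets, 1 with all groups in 1 fit, 1 without the 4 libraries of fewest genes (an alternative chosen after seeing the data) and 0 to 3 without 1 library. For Ly49C/I+ against uneducated cells in NKG2A KO it was 36, and 24 to 36 without 1 library. In the same comparison it was 39 by the likelihood ratio test and by DESeq2. It fell to 26 with no filter, 28 with all groups in 1 fit and 20 with the replicate block. Between genotypes in Ly49C/I+ cells it was 0, and 3 by the likelihood ratio test and by DESeq2. The cause of these moves was not tested.

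Over all genes, calls moved by more than 1.5 times in the same places. They went from 886 to 451 (no filter), 1543 (all groups) and as few as 475 without 1 library for Ly49C/I+ in WT. They went from 239 to 463 (likelihood ratio test), 558 (DESeq2), 104 (no filter), 128 (GC and length) and as few as 134 without 1 library for NKG2A+ against Ly49C/I+. They went from 1522 to 889 (no filter), 752 (replicate block) and 968 (without Ly49C/I+ library 4) in NKG2A KO. Between genotypes in Ly49C/I+ cells they went from 0 to 63, 83, 19 (all groups) and 15 (without WT library 1).

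Replicate numbers recur in the groups but were not taken to pair the samples, since no label ties a number to a mouse, litter or day and not every pair's deviations correlated above 0.1: those of libraries with the same number correlated above 0.1 in 5 of 9, 5 of 6, 2 of 6 and 2 of 5 pairs in the first 4 comparisons and in 2 of 8 and 0 of 4 between genotypes, and 4, 5, 6, 3, 1 and 2 of these pairs were closest to their own number. With the replicate number as a block the member count was 27, 15, 1 and 20 in the first 4 comparisons and 0 in the others. The block ended the calls of Mx1, Gbp4, Ifi35 and Bst2 for Ly49C/I+ in WT and, among others, of Mx2, Gbp7, Igtp, Irgm1, Irf9, Stat2, Dhx58 and Slfn2 in NKG2A KO. In NKG2A+ against Ly49C/I+ cells 6 of 6 pairs were closest to their own number, which is a hint from the data and not from the design, and a block by the title numbers was not run. Oas2 and Iigp1, with means under 5 CPM in every group, passed the filter on low counts in no comparison, and only the fits with no filter tested them.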
